A study of Homo sapiens with 4 samples.

Results

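The 10 genes described here encode the D cyclins CCND2 and CCND3, their partner kinases CDK4 and CDK6, the kinase inhibitors CDKN1B, CDKN2A and CDKN2C, and the pocket proteins RB1, RBL1 and RBL2. They are a list of named genes of 1 pathway, drawn up with earlier results of these data known, and were all found among the 25847 genes measured. Each gene is represented by the transcript cluster (the array's probe set for a gene) that carries its symbol. Where there were several clusters, which held for 2 genes, the cluster with the highest mean over the 4 arrays was kept. The study exposed Hut78 cells, an established T-cell line derived from a cutaneous lymphoma, to ribavirin, a guanosine analogue used as an antiviral drug, and measured their transcripts on a whole-transcript microarray. The control group was 2 arrays of untreated Hut78 cells, for which the labels give no duration, and the ribavirin group was 2 arrays of Hut78 cells exposed to 50 µM for 120 h. All cells came from this 1 line, were grown in RPMI medium with fetal bovine serum, and no other agent or genotype distinguishes the groups. No label says that the arrays came from separate cultures, so every p-value below covers only the variation among these 4 arrays, some or all of which may be technical.

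D cyclins bind CDK4 or CDK6 in G1, and the complexes phosphorylate the pocket proteins, which release E2F transcription factors and so allow genes of DNA replication to be transcribed. INK4 inhibitors, among them p16 (CDKN2A) and p18 (CDKN2C), bind CDK4 and CDK6 directly, while p27 (CDKN1B), of the CIP/KIP family, chiefly inhibits cyclin E-CDK2 and also binds cyclin D complexes. Lymphocytes rely mainly on cyclins D2 and D3 and on CDK6, and mitogenic signals through antigen and cytokine receptors raise them.

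Values are log2 probe set summaries, and a change is the ribavirin mean minus the control mean on that scale. Probe sets meant to measure background reached a mean of 5.20 in the control group and 4.95 in the ribavirin group, and genes at or below these values are called within the background range. Of the 10 genes 2 rose, 2 fell and 6 did not pass the test (limma over all 25847 genes, Benjamini-Hochberg adjusted p under 0.05). Over all genes 9.34% rose and 5.88% fell, 15.2% in all. Among the 9726 genes whose control mean lay above background, 21.2% rose and 11.8% fell, 33% in all. Of the 10 genes 8 lay above background in the control arrays, and the 4 that passed were among these 8. The median log2 change of the 10 genes was 0.01, against -0.05 over all genes and 0.05 over genes above background in the controls. The split over all genes, 2413 up and 1521 down, depended on scaling. It was 2899 up and 1034 down when each array was centred on its median, and 1939 up and 1996 down after quantile normalization. The array medians themselves lay within the background range.

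CCND2, which encodes cyclin D2 (TC12000060.hg.1), fell. Its level was 14.70 and 14.71 in the control arrays and 14.29 and 14.22 in the ribavirin arrays. The ribavirin arrays both lay below the controls, and the distance between the groups was several times that between arrays of a group. The log2 change was -0.45 (SE 0.07, 95% interval -0.63 to -0.27, limma adjusted p = 0.0168), so that 73.4% of the control signal remained. In bulk RNA a lower share of cells with a transcript and less transcript per cell cannot be told apart. The call ended when any of the 4 arrays was left out, with an adjusted p of 0.0758 to 0.1001 and a log2 change of -0.48 to -0.42.

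CCND3, which encodes cyclin D3 (TC06001727.hg.1), also fell, at a level only 0.48 above background in the controls and 0.37 above it with ribavirin. It measured 5.72 and 5.63 in the control arrays and 5.35 and 5.29 in the ribavirin arrays, and the groups did not overlap. The background value was itself lower in the ribavirin group (5.20 in control and 4.95 in ribavirin). The part of this shift in the fall of CCND3 was not tested. Groups did not overlap for 6 of the 10 genes, while the same held for 59.9% of all genes. The log2 change was -0.36 (SE 0.08, 95% interval -0.55 to -0.17, limma adjusted p = 0.0366). The call ended without any 1 of the 4 arrays (change -0.40 to -0.32). It also ended with arrays centred on their median (change -0.30, limma adjusted p = 0.0926) and with a replicate block (limma adjusted p = 0.0541). Over the alternatives that used all 4 arrays its adjusted p ranged from 0.0163 to 0.0926. The other D cyclin gene, CCND1, is no member and was added to the description after its values were seen. It lay within the background range at 4.26 and 4.24 in the control arrays and 4.17 and 4.29 in the ribavirin arrays. The per-array difference between CCND2 and CCND3 changed by -0.09 (SD between arrays 0.07 in control and 0.00072 in ribavirin, n = 2 each; exact two-sided permutation p = 0.333, the smallest that 2 arrays against 2 allow).

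**Figure D1:**
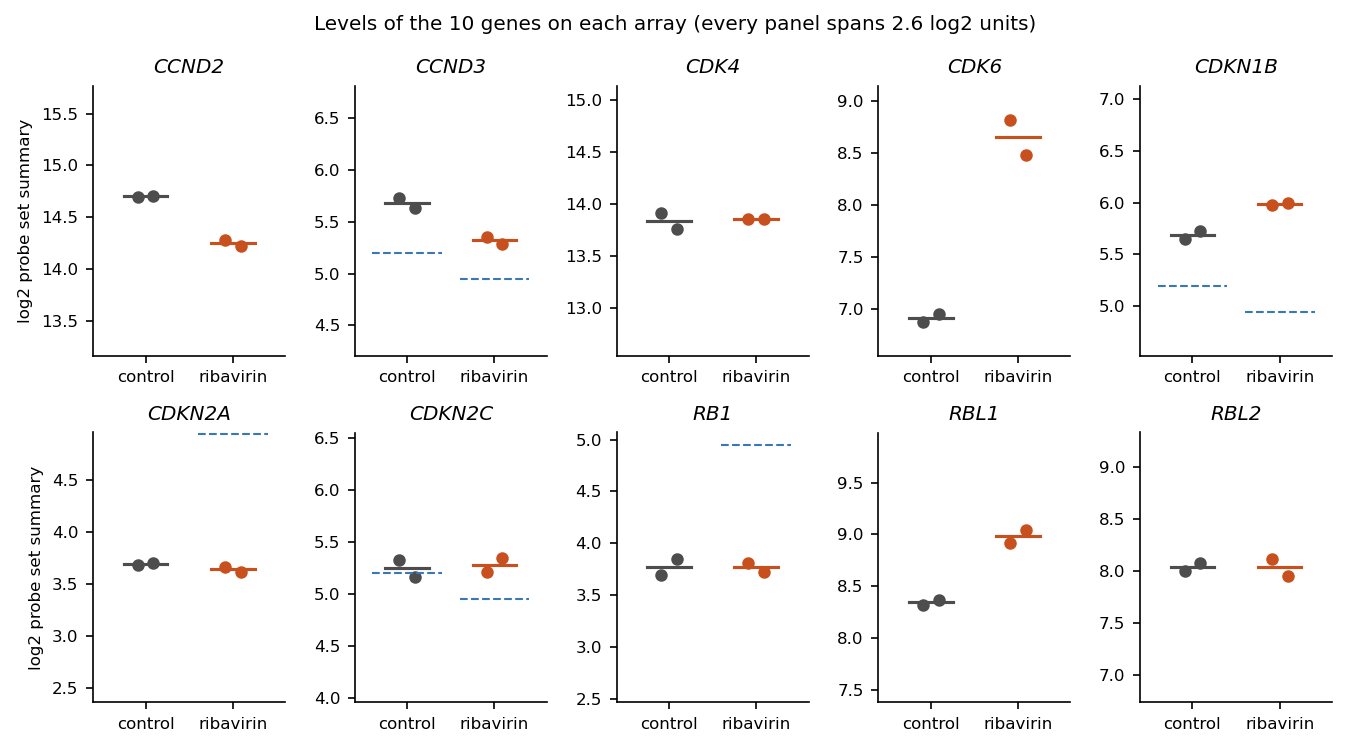
Log2 probe set summary of each of the 10 genes on each array, with points for the 2 arrays of a group and a bar for their mean. Dashed lines mark the highest background probe set of that group where it falls inside the panel (for CDKN2A and RB1 only the ribavirin line does, and both genes lie below it). CCND2 and CCND3 are lower and CDK6 and RBL1 higher on both ribavirin arrays, while RB1 stays near 3.77 in both groups.

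CDK6, a partner kinase of the D cyclins, rose most among the 10 genes. The cluster kept by the rule (TC07003061.hg.1) carries the symbol CDK6 but is annotated by the array's table as an mRNA-like noncoding transcript from the NONCODE collection. It measured 6.87 and 6.95 in the control arrays and 8.83 and 8.48 in the ribavirin arrays. Both ribavirin arrays stood far above both controls, and they differed from each other more than the controls did. The log2 change was 1.74 (SE 0.13, 95% interval 1.42 to 2.07, limma adjusted p = 0.00317), or 3.35-fold, and 0.290% of all genes had a larger change in either direction. The cluster built on the RefSeq mRNA of CDK6 (TC07001603.hg.1) rose less. It measured 5.75 and 5.79 in the control arrays and 6.86 and 6.65 in the ribavirin arrays, a log2 change of 0.98 or 1.98-fold (limma adjusted p = 0.00511 with that cluster in place of the first, an alternative added after the data were seen). Both clusters rose, so the direction for CDK6 did not depend on the choice of cluster, while the size did. The RefSeq cluster lay near background in the controls (mean 5.77 against 5.20), where summaries of this type compress changes. The part of this in its smaller change was not tested. Whether the first cluster measures the coding transcript was not tested. The call ended without either control array, where calls were also lost across all genes, and held without either ribavirin array. With 1 array left out the log2 change was 1.57 to 1.92.

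CDK4, the other partner kinase (TC12001633.hg.1), did not pass. It measured 13.91 and 13.76 in the control arrays and 13.85 and 13.85 in the ribavirin arrays, where the latter lay between the former. The log2 change was 0.02 with a 95% interval of -0.19 to 0.23 (limma adjusted p = 0.917), and its sign turned after quantile normalization (-0.046). The per-array difference between CDK4 and CDK6 changed by -1.73 with the cluster kept by the rule and by -0.97 with the RefSeq cluster of CDK6 (SD between arrays 0.16 in control and 0.24 in ribavirin for the former, n = 2 each; exact two-sided permutation p = 0.333 for each, the smallest possible). With either cluster the difference was smaller on both ribavirin arrays than on both control arrays, a separation that a test of 2 arrays against 2 cannot judge. For single genes, the groups did not overlap for 59.9% of all genes.

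**Figure D2:**
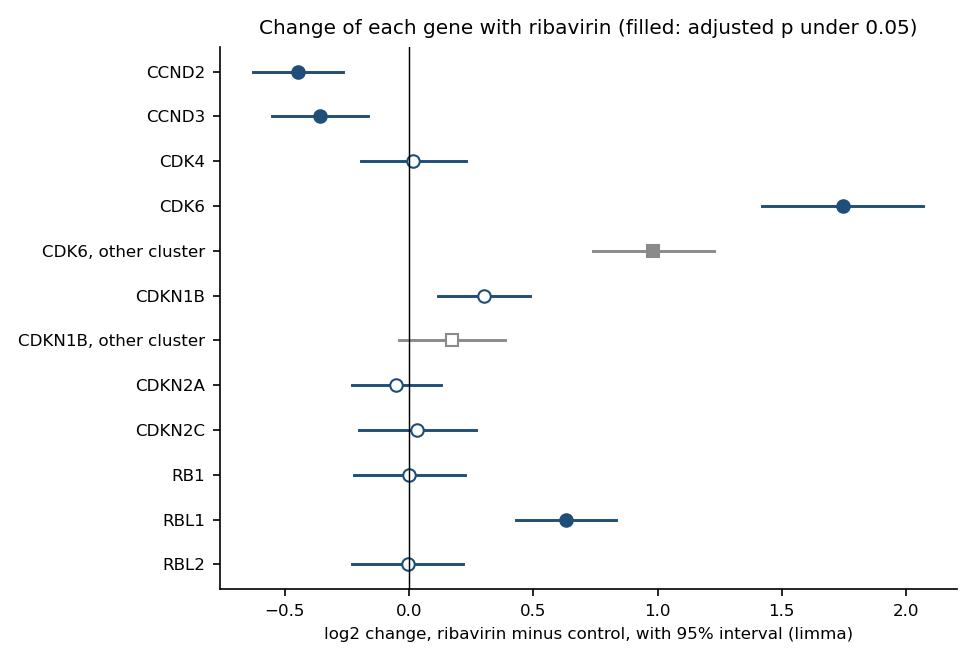
Log2 change with ribavirin for each gene with its 95% interval from limma (circles), and for the second cluster of CDK6 and CDKN1B (squares, from a fit over all clusters with 1 symbol). Filled symbols had an adjusted p under 0.05. Both CDK6 clusters lie to the right of 0, at 1.74 and 0.98, and the intervals of CDK4, CDKN2A, CDKN2C, RB1 and RBL2 span 0.

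Of the 3 inhibitors none passed in the fit over all genes by limma, and CDKN1B had an unadjusted p under 0.05. CDKN1B, which encodes p27 (TC12000178.hg.1), measured 5.65 and 5.72 in the control arrays and 5.976 and 5.999 in the ribavirin arrays. Both ribavirin arrays lay above both controls, at a level only 0.49 above background in the controls and 1.04 above it with ribavirin. The log2 change was 0.30 (SE 0.07, 95% interval 0.12 to 0.49), with a limma adjusted p of 0.0518 that lay just past the threshold. The adjusted p was 0.0441 with an intensity trend, 0.0269 with arrays centred on their median and 0.0236 with dim genes left out. With a replicate block the limma adjusted p was 0.0812. It was 0.0530 with robust moderation, 0.0983 with clusters averaged (change 0.24) and 0.102 after quantile normalization (change 0.23), and 0.131 to 0.181 with 1 array left out. A second CDKN1B cluster (TC12002253.hg.1, NONCODE) measured 5.23 and 5.24 in the control arrays and 5.33 and 5.48 in the ribavirin arrays, a log2 change of 0.17 (limma adjusted p = 0.255 in a fit over all clusters with 1 symbol). The control mean of this second cluster, 5.23, lay barely above the background of 5.20.

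CDKN2A, which encodes p16 (TC09000964.hg.1), lay within the background range on all 4 arrays, at 3.69 and 3.70 in the control and 3.67 and 3.62 in the ribavirin arrays. Its log2 change was -0.05 (95% interval -0.23 to 0.13, limma adjusted p = 0.671). The sign turned with the scaling, to 0.033 after quantile normalization and to 0.013 when arrays were median-centred. CDKN2C, which encodes p18 (TC01000619.hg.1), lay close to background, at 5.32 and 5.17 in the control arrays and 5.21 and 5.34 in the ribavirin arrays. The groups overlapped, and the log2 change was 0.03 (95% interval -0.20 to 0.27, limma adjusted p = 0.847). How far the background compressed changes of these INK4 genes was not tested.

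RBL1, which encodes the pocket protein p107 (TC20000822.hg.1), rose. It measured 8.32 and 8.37 in the control arrays and 8.92 and 9.04 in the ribavirin arrays, without overlap. The log2 change was 0.63 (SE 0.08, 95% interval 0.43 to 0.83, limma adjusted p = 0.00893), or 1.55-fold, and 6.77% of all genes had a larger change. The call ended without either control array, where calls were also lost across all genes, and only just held without either ribavirin array. With 1 array left out the log2 change was 0.57 to 0.69.

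RBL2, which encodes the related pocket protein p130 (TC16000448.hg.1), measured 7.997 and 8.077 in the control arrays and 8.11 and 7.95 in the ribavirin arrays. The groups overlapped, and the log2 change was -0.01 (95% interval -0.23 to 0.22, limma adjusted p = 0.978), or 0.06 with arrays centred on their median. The per-array difference between RBL1 and RBL2 changed by 0.64 (SD between arrays 0.02 in control and 0.20 in ribavirin, n = 2 each; exact two-sided permutation p = 0.333, the smallest possible). RB1, which encodes the retinoblastoma protein (TC13000190.hg.1), lay within the background range on all 4 arrays, 1.43 below the highest background probe set in the controls. It measured 3.69 and 3.85 in the control arrays and 3.81 and 3.73 in the ribavirin arrays, and the log2 change was 0.00 (95% interval -0.22 to 0.22, limma adjusted p = 0.995). A signal in that range gives only an upper limit on the level of the RB1 transcript.

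RBL1 is known as a target of E2F factors in proliferating cells. The promoter windows of the pocket protein genes that were above background are shown because 1 of these genes rose and the other did not, each from 250 bases before to 50 bases after a RefSeq transcription start (GRCh38.p14, 5′ to 3′ on the strand of the gene). Capitals mark matches to the E2F core TTTNNCGC, searched on both strands. The RBL1 window lies at chr20:37095948-37096247 on the minus strand, and the first of the 2 RBL2 windows at chr16:53434221-53434520 on the plus strand.
RBL1: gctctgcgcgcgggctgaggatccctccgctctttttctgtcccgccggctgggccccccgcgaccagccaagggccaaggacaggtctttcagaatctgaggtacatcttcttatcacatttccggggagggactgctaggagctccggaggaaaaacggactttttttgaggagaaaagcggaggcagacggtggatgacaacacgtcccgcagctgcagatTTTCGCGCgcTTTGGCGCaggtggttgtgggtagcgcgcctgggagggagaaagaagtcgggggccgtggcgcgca
RBL2: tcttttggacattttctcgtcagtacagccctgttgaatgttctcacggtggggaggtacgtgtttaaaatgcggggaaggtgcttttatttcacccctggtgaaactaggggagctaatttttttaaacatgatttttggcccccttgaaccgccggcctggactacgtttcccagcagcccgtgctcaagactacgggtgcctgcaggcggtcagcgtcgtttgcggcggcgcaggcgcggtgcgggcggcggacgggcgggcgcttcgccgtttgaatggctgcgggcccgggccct
The RBL1 window held 2 matches, TTTCGCGC from 26 to 19 bases before the start and TTTGGCGC from 16 to 9 bases before it. The motif occurred in 6.89% of the 35116 promoter windows of all genes. Windows were matched by symbol for 9 of the 10 genes, 16 windows in all, and in the 15 others these letters were not found. A window covers only 1 listed start, and other starts of a gene were not searched. The only RB1 window (chr13:48476200-48476499, plus strand) held 0 CpG and 38.3% GC. Whether it covers the main promoter of RB1 was not tested, so the missing match says nothing about that promoter. A search for GTAAACA, a core recognised by FOXO factors, found 1 match, in a CCND3 window, against 3.42% of all windows. A match is a description of these letters and not a site of binding. Whether the matches bear on the unequal change of RBL1 and RBL2 was not tested.

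**Figure D3:**
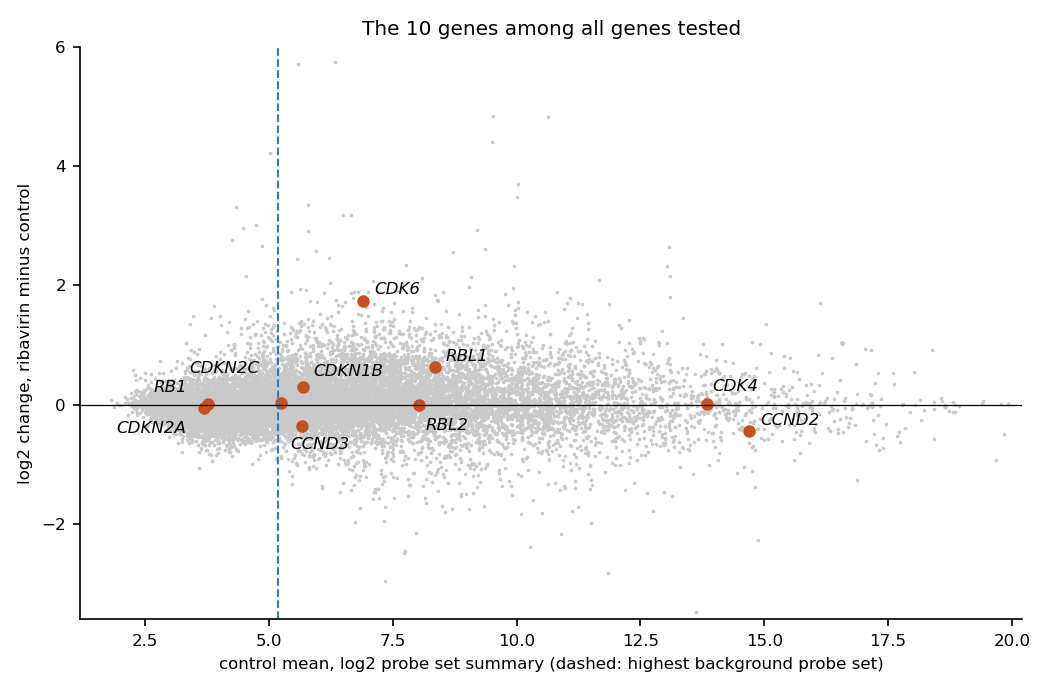
Log2 change of every gene tested against its control mean, with the 10 genes in orange and a dashed line at the highest background probe set of the control arrays (5.20). CDK6 stands above most genes of its level, CCND2 and CDK4 lie at the bright end of the scale, and RB1 and CDKN2A lie left of the background line.

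Genes whose 4 values followed those of the members most closely were taken over genes brighter than the median, by Euclidean distance over the 4 arrays after subtracting each gene's control mean. Nearest to CDK6 (cluster of the rule) were RTN3 (distance 0.10, log2 change 1.71), MTHFD2 (0.10, 1.80) and TAX1BP1 (0.13, 1.69). Nearest to CCND2 were SNX27 (distance 0.02, log2 change -0.44), TGFBRAP1 (0.02, -0.46) and DENND6A (0.02, -0.44). With 4 arrays in 2 groups, this likeness mostly reflects an equal size of change.

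Around the 10 genes, 7 lists of other genes of the pathway were read from the same fit. For comparison, 9.34% of all genes rose and 5.88% fell. Among genes above background in the controls, 21.2% rose and 11.8% fell. No list was tested against these shares. Of 5 other CDK inhibitors 1 rose and 0 fell, and the list's median log2 change was 0.00. The gene that rose was CDKN3, a phosphatase that acts on CDKs, from 7.01 ± 0.11 to 7.98 ± 0.01 (SD, n = 2 each; log2 change 0.97, SE 0.08, limma adjusted p = 0.00411). The other 4, CDKN1A, CDKN1C, CDKN2B and CDKN2D, had control means within the background range. Of 12 other G1 cyclins, kinases and activators measured, 3 rose and 1 fell, with a median of 0.17. CDK7 (0.58) and its partner cyclin H, CCNH (0.50), which form the kinase that activates CDKs, rose, as did cyclin E2, CCNE2 (0.54). The phosphatase CDC25A, which activates CDK2, fell by 0.42 on the log2 scale. Of 13 genes of D cyclin and p27 turnover 1 rose and 2 fell, with a median of -0.06. The kinase GSK3B, which marks cyclin D1 for degradation, rose (0.52). USP2, a deubiquitinase of cyclin D1 (-0.91), and AMBRA1, a ligase adaptor for D cyclins (-0.47), fell. With ribavirin USP2 (5.08) lay close to the background of 4.95. SKP2, the F-box protein that targets p27, had a log2 change of -0.38 and did not pass (limma adjusted p = 0.0555; named after its value was seen). With 1 array left out, calls were lost in these 3 lists and also across all genes, most of all without a control array. Losses without a control array therefore say little about a single list.

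All measured genes of the next 3 lists had control means above background, and 33% of all such genes passed. Of 18 E2F, DP and DREAM complex factors 3 rose and 4 fell, with a median log2 change of 0.07. E2F7 (0.81) and E2F8 (0.47), the atypical repressors of the family, rose, and so did LIN54 (0.80), a DNA-binding subunit of the MuvB core. TFDP2 (-0.45), a dimerisation partner of E2F factors, fell. So did E2F4 (-0.58), an E2F that binds p107 and p130, E2F2 (-0.36) and E2F5 (-0.33, ribavirin within the background range). E2F4, E2F2 and E2F5 were named after their values were seen. With arrays centred on their median 3 rose and 0 fell. Of 25 E2F target genes of G1/S 4 rose and 1 fell, with a median of 0.07, and after quantile normalization 4 rose and 4 fell. The deoxynucleotide enzymes RRM2 (0.81) and TYMS (0.79) rose, while MCM2, a subunit of the replicative helicase, fell (-0.56). CCNE2 is in both this list and the list of G1 cyclins. Of 15 mitotic and proliferation genes 5 rose and 2 fell, with a median of 0.06: NUSAP1 (0.78), CDK1 (0.74), MKI67 (0.72) and KIF11 (0.79) rose, and CCNB1 (-0.55) and PLK1 (-0.56), named after their values were seen, fell. In these 3 lists too, calls were lost with 1 array left out, as they were across all genes.

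Of 15 transcriptional regulators of D cyclin, p27 and INK4 genes 6 rose and 1 fell, with a median log2 change of 0.12. In this list 4 control means lay within the background range. For comparison, 15.2% of all genes passed, and 33% of those above background in the controls. EZH2, the methyltransferase that represses CDKN2A, rose from 8.98 ± 0.01 to 9.79 ± 0.16 (SD, n = 2 each; log2 change 0.81, SE 0.10, limma adjusted p = 0.00839). FOXO3 (0.49) and FOXO1 (0.79), activators of CDKN1B, and MYC (0.48), an activator of CCND2, rose as well. In the controls FOXO1 (5.53) lay close to the background of 5.20. MEN1, whose product supports transcription of CDKN1B and CDKN2C, was named after its value was seen and fell (-0.35); with arrays centred on their median it did not pass. Calls of this list were lost as well with 1 array left out, as they were across all genes.

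**Figure D4:**
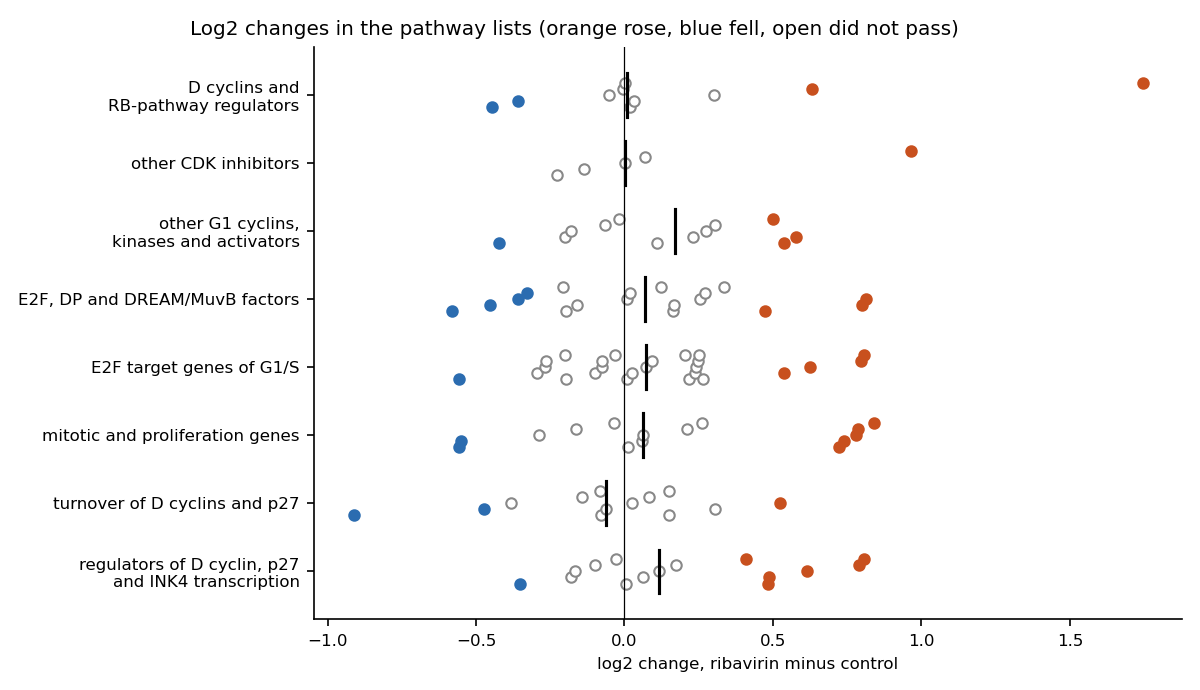
Log2 change of each gene in the 10 genes described and in the 7 pathway lists, with orange for genes that rose, blue for genes that fell and open circles for genes that did not pass. Black lines mark each list's median, which lay between -0.06 and 0.17.

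The labelled cell type was checked against marker genes. CD3D, CD3E, CD3G and LCK lay well above background in both groups, while CD2 and CD28 lay within the background range. CD4 (5.56 in control) and CD7 (5.81 in control) reached it with ribavirin (4.54 and 4.946). Of 13 T-cell markers 9 fell and 1 rose, and the log2 of their summed linear signal was 13.58 to 13.62 in control and 12.86 to 12.87 in ribavirin arrays. The marker that rose, TRAT1, had a control mean within the background range (4.32). Of 8 epithelial markers 6 fell and 0 rose (summed log2 signal 10.85 to 10.87 in control and 10.06 to 10.09 in ribavirin arrays, with KRT18 and KRT19 within the background range in control). Of 6 B-cell markers 2 fell and 0 rose (11.27 to 11.45 and 10.03 to 10.20, with 3 of 6 in the background range). In control the B-cell marker CD79A (11.18) was brighter than CD3E (11.11) and LCK (10.93). The epithelial markers MUC1 (8.96) and ESRP1 (8.87) also lay well above background in control. Of 6 NK-cell markers 2 fell and 0 rose (8.84 to 9.14 and 7.57 to 7.73, with 5 of 6 in the background range). Of 10 myeloid markers 1 rose and 0 fell with 9 in the background range, and of 6 fibroblast markers 0 rose and 1 fell with 5 in the background range. The part of these shifts in the changes of the 10 genes was not tested.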

How the data were processed

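Total RNA of Hut78 cells was measured on 4 Affymetrix Human Transcriptome Arrays, and groups came from the sample titles. The authors deposited summaries per probe set on a log2 scale, and the name of their table gives the method as SST-RMA. Affymetrix Expression Console and RMA are listed, per the submitters' processing notes, and the design text also names a computational tool for exon arrays. Software versions and the background step: not given in the sources used here. Summaries of the RMA type compress changes near background. The series matrix holds the same 70523 probe sets with the same values (largest difference 0).

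Of 67528 transcript clusters, 33444 carried 1 symbol, which gave 25847 genes. The 2 groups were compared with limma 3.58.1 (R 4.3.3) by a linear model without covariates and moderated variances, with 2 residual and 3.19 prior degrees of freedom. Tests were two-sided, with Benjamini-Hochberg adjustment over all genes. Arrays have no depth, and their number limits the precision. A separate limit is the signal floor, as 62.4% of genes had a control mean within the background range. The log2 medians of the arrays lay between 4.20 and 4.30, within the background range, so median centring aligned the arrays on signal of that range. Intervals are at 95%.

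Members, lists and alternatives were chosen with earlier results of these data known. Named were all members, up to 4 passing genes with the smallest p in each list, and the nearest patterns. A gene picked by this rule is not reported here. The alternatives tried were robust moderation, an intensity trend, quantile normalization, median centring, leaving out dim genes, averaging clusters, a replicate block, thresholds of 0.1 and 0.01, each array left out and, added later, the RefSeq cluster of each member.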

Additional observations from a re-analysis of the deposited data

How the results depend on the processing

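The 4 called genes kept their direction under every alternative. The calls of CCND2, CDK6 and RBL1 held under all of them except leaving out an array and, for CCND2, the threshold of 0.01. Same-numbered arrays share only a number (correlation of deviations 0.0514 over genes). With the number as a replicate block, 1 member fell instead of 2 (CCND3, -0.36, adjusted p = 0.0541, did not pass; CDKN1B, adjusted p = 0.0812), E2F factor falls were 2 and regulator falls 0. With median centring 1 member fell (CCND3 -0.30, not passing), E2F factor falls and regulator falls were 0, turnover rises were 2, CDKN1B passed (0.37), and the signs of CDKN2A (0.013) and RBL2 (0.060) turned. CDKN1B (0.30) also passed with an intensity trend and with dim genes left out. With quantile normalization E2F target falls were 4, and the signs of CDK4 (-0.046), CDKN2A (0.033) and the CDKN2A minus CDKN2C difference (0.025) turned. With dim genes left out E2F target falls were 2 and turnover rises 2. The cause of these shifts was not tested, beyond the construction of each alternative. At an adjusted p under 0.1, 2449 genes fell, E2F target falls were 2 and turnover rises 2. At 0.01, 894 genes rose and 420 fell, 0 members fell, G1 cyclins had 0 rises and 0 falls, E2F factors 1 and 0, E2F target falls were 0, mitotic falls 0, turnover had 0 rises and 1 fall, and regulators 1 and 0.

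With each array left out in turn, 22 to 1430 genes rose and 4 to 571 fell, 0 to 2 members rose and 0 fell. The ranges of rises were 0 to 1 for other inhibitors, 0 to 2 for G1 cyclins, 0 to 2 for E2F factors, 0 to 4 for E2F targets, 0 to 5 for mitotic genes, 0 to 1 for turnover and 0 to 2 for regulators; falls were 0 throughout but 0 to 1 for turnover. A group left with 1 array was assumed to have the spread of the other. Fewest genes passed over the whole array without a control array, so a call of a list or member lost there says little about that list or member. The log2 changes ranged from -0.48 to -0.42 for CCND2, -0.40 to -0.32 for CCND3, -0.060 to 0.093 for CDK4, 1.57 to 1.92 for CDK6, 0.26 to 0.34 for CDKN1B, -0.045 to 0.11 for CDKN2C, -0.076 to 0.079 for RB1, 0.57 to 0.69 for RBL1 and -0.085 to 0.075 for RBL2, and the CDKN2A minus CDKN2C difference from -0.17 to 0.0057. Signal near background limits CCND3, CDKN1B, CDKN2A, CDKN2C, RB1 and the RefSeq cluster of CDK6.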
